A study of Mus musculus with 24 samples.

Results

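The interleukin-1 family was followed through 10 genes in transplanted mouse tumours. The set held 5 agonist ligands (Il1a, Il1b, Il36g, Il33 and Il18), the receptor antagonist gene Il1rn, the decoy receptor gene Il1r2, and the signalling receptor genes Il1r1, Il1rap and Il1rl1. These are the rows of the deposited count table that carry the 10 symbols, out of 27368 genes. The genes were chosen with their measured differences between irradiated and unirradiated tumours known, so their levels and fold changes for radiation are given as a description, with no p-value. Where members called in that contrast are counted, the share of all genes called stands beside the count and nothing is read from it. The share of all genes whose groups do not overlap is not given here, so nothing is read from a lack of overlap. Comparisons of the cell lines, of olaparib and of differences between effects were tested.

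All 24 tumours grew from cells of the mouse squamous carcinoma line SCC7 under the skin of female C3H mice aged 6 to 8 weeks, each injected with about 1000000 cells. OE tumours carried cells made to overexpress the microRNA miR-21-5p, and NC tumours carried cells with an empty vector. Treatment began at about 300 mm3 and was radiation (IR), olaparib, both or sham, in 8 groups of 3 tumours: OE IR+olaparib, OE IR, OE olaparib, OE sham, NC IR+olaparib, NC IR, NC olaparib and NC sham. Radiation was 8 Gy of X-rays per day for 3 days to the tumour only, and olaparib, an inhibitor of the PARP DNA repair enzymes, was injected into the abdomen at 50 mg/kg 2 hours before each irradiation and once more on the day after the last. The labels do not give the time between treatment and collection, how olaparib was timed in mice without radiation, or whether OE and NC were each 1 clone. The microRNA itself was not analysed here, so the overexpression was not checked.

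The labels disagreed with each other, which bears on every group value. Groups were read from the letters of each tumour's identifier, and the written treatment and batch labels named another group for 19 of the 24 tumours. Both readings gave the same radiation status for 16 tumours, of which 8 were irradiated and 8 were not. The written labels differed in cell line for 8 tumours and in olaparib for 16, and the cell type label read OE for every tumour. The 5 tumours with 1 group in both readings were EIO-713, I-732, I-736, EO-762 and ES-706.

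Libraries held 37099055 to 40004502 counts, and all 10 genes passed the filter on low counts with 16560 genes in total. One tumour stood apart. In EIO-744, an OE IR+olaparib tumour, fibroblast marker genes took 10.5% of all counts, against 0.272% to 0.786% in the other 23 tumours, and the proliferation marker Mki67 was at 21.6 CPM (counts scaled to a library of 1000000 reads with TMM factors), against 72.4 to 459 CPM. Skeletal muscle markers took 1.38% of counts in I-732. Basal keratinocyte markers were uneven for a squamous line: Itgb4 had a median of 274 CPM and Itga6 of 140 CPM over the 24 tumours, whereas Krt5, Krt14 and Trp63 had medians of 0.69, 0.9 and 0.331 CPM. Whole tumours include host cells, and in such bulk samples a change in the number of cells of a type cannot be told apart from a change in RNA per cell. The main values with and without EIO-744 are given beside each other where that tumour moves them.

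Interleukin-1 alpha and beta bind the receptor IL1R1, which then recruits the accessory chain IL1RAP and signals through MyD88 and IRAK kinases to NF-kB. The antagonist IL1RN occupies IL1R1 without recruiting that chain, and the decoy IL1R2 binds the ligands without signalling. IL-33 and IL-36 gamma use the same accessory chain with their own receptors, IL1RL1 (ST2) for IL-33, whereas IL-18 uses a separate receptor pair. Interleukin-1 alpha and IL-33 are released from damaged cells, and interleukin-1 beta and IL-18 are cut to their active form by caspase-1 in inflammasomes.

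Promoter sequences are shown for the agonist gene Il1a and the antagonist gene Il1rn, whose levels were higher in irradiated tumours, and for Il1b, whose level was not. Each is the 250 bases before an annotated start in RefSeq (GRCm38.p6, the build the submitters name as mm10), written 5′ to 3′ in lower case, with capitals for matches to the AP-1 motif TGANTCA or the TATA box TATAAA. Il1a lies at chr2:129309973-129310222 on the minus strand, Il1b at chr2:129371140-129371389 on the minus strand, and Il1rn, from its first listed start, at chr2:24336610-24336859 on the plus strand.
Il1a: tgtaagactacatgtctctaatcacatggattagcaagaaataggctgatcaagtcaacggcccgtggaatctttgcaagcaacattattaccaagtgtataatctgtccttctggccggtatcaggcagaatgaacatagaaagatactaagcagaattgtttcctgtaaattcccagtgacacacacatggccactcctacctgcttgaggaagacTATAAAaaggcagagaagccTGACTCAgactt
Il1rn: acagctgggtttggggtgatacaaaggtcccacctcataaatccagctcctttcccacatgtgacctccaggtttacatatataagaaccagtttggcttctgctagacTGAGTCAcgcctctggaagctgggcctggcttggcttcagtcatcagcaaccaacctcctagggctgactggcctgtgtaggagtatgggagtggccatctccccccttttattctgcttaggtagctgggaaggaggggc
Il1b: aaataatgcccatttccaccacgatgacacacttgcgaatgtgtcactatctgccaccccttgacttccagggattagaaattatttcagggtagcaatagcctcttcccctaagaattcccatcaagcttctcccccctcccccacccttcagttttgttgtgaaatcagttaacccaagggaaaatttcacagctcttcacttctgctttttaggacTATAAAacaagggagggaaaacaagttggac

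The RefSeq spans of Il1a and Il1b reach into these windows. The ligand genes other than Il33 and Il18, with Il1rn, lie on chromosome 2 (Il36g at chr2:24186476-24193567, Il1rn at chr2:24336860-24351491, Il1a at chr2:129299609-129310186 and Il1b at chr2:129364569-129371164). Il1r2, Il1r1 and Il1rl1 lie in that order on chromosome 1 between positions 40084692 and 40465418. Il33 is on chromosome 19, Il18 on chromosome 9 and Il1rap on chromosome 16.

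Both strands were searched for motifs, and the motifs do not overlap each other in these windows. The AP-1 match began 12 bases before the Il1a start and 141 bases before the Il1rn start, and none was found in the Il1b window. The other listed Il1rn starts had none either. Nor had the promoters of Il33, Il36g, Il18 and Il1r2, which were also called higher in irradiated tumours. A link between the motif and radiation was not tested. TATA boxes began 32 bases before the Il1a start and 31 bases before the Il1b start. All 10 genes had at least 1 promoter in the table, 15 in all: AP-1 matched in 2 of them, the TATA box in 5 (Il1a, Il1b, Il18 and both of Il33) and the NF-kB consensus in 1, the second Il1r1 promoter. The TATA matches of Il18 (175 bases before the start, on the opposite strand) and the first Il33 promoter (203 bases before) lay farther out than the others. The AP-1 motif was present in 6.75% of all 32851 promoters of that length, the TATA box in 12.4% and the NF-kB consensus in 3.9%.

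Per base of exon, the ST2 receptor gene Il1rl1 was far above the rest of the family. Its median over 24 tumours was 90.7 RPKM (CPM divided by exon length in kilobases), with a range of 5.14 to 153 RPKM. Il18 followed at a median of 9.02 RPKM, then Il1r1 at 5.06, Il1rn at 4.89, Il1rap at 4.05, Il33 at 2.77 and Il1b at 2.63 RPKM. Il1r2 and Il1a had medians of 1.07 and 0.575 RPKM. Il36g was lowest, with a median of 0.0321 RPKM and no read in 5 tumours, all unirradiated. These medians order the genes across tumours, and the ranges of neighbours in the order overlapped.

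**Figure D1:**
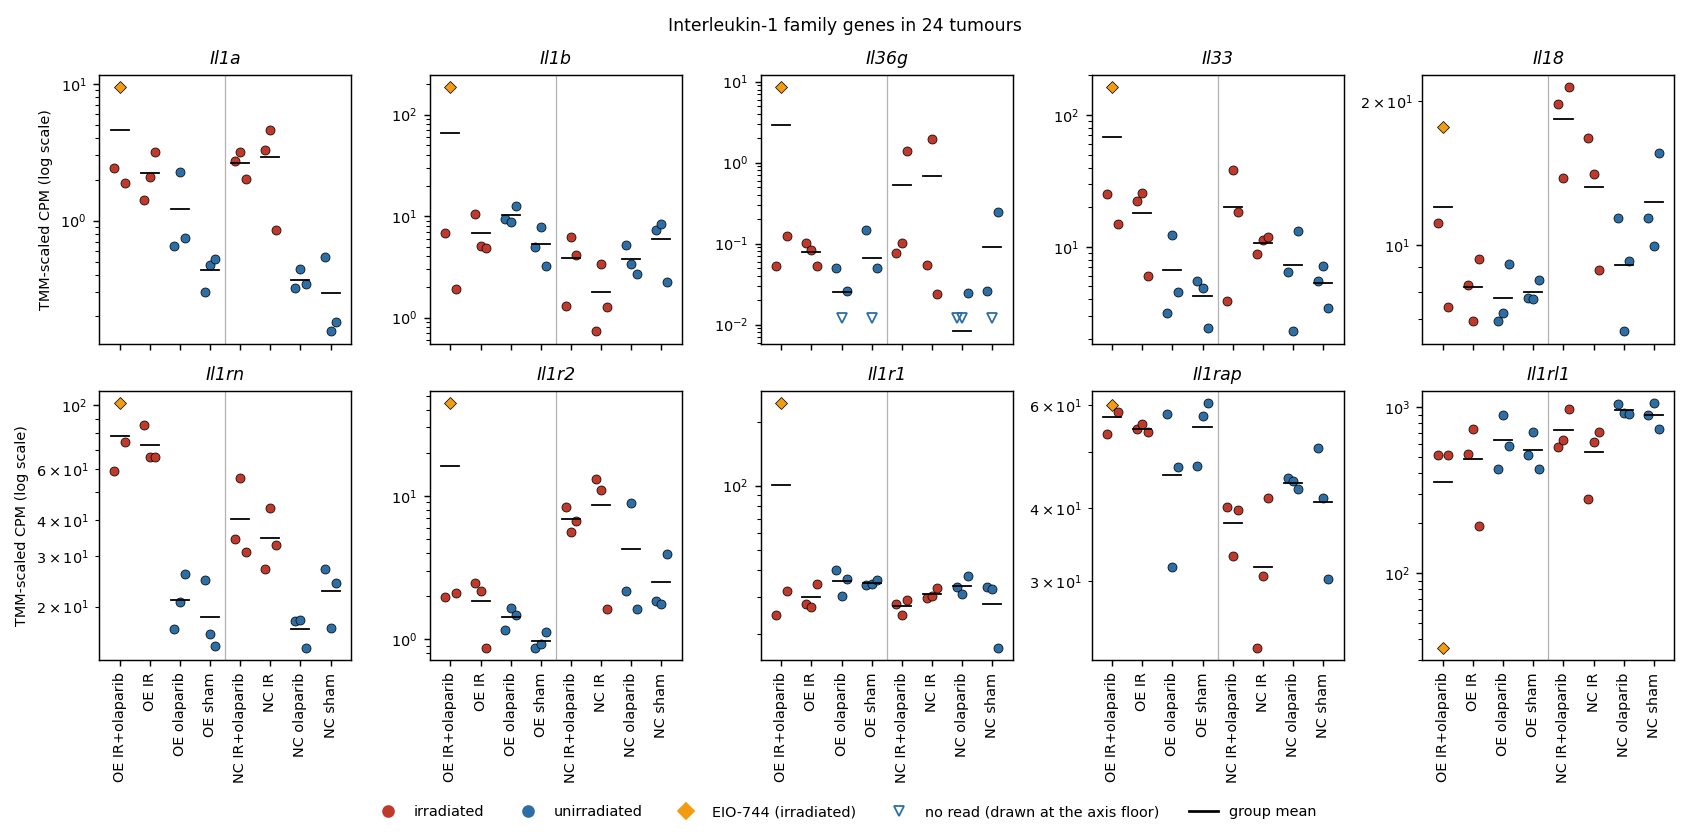
TMM-scaled CPM (log axes) of each of the 10 genes in every tumour, with 3 tumours per group, red for irradiated and blue for unirradiated tumours, a bar for the group mean and an orange diamond for EIO-744. Il1rn runs from 27.06 to 102 CPM in irradiated tumours and from 14.45 to 27.05 CPM in unirradiated ones, and EIO-744 is the highest tumour for Il1a, Il1b, Il36g, Il33, Il1rn, Il1r2 and Il1r1 and the lowest for Il1rl1.

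Il1a, the alarm ligand held in the nucleus and cytosol of many cell types, was at a higher level in irradiated tumours in each of the 4 pairs of groups. It had 2.41, 9.53 and 1.89 CPM in OE IR+olaparib tumours against 0.65, 2.28 and 0.746 CPM in OE olaparib tumours, and 1.41, 2.09 and 3.19 CPM in OE IR tumours against 0.299, 0.477 and 0.522 CPM in OE sham tumours. NC IR+olaparib tumours had 2.73, 3.17 and 2.02 CPM against 0.322, 0.44 and 0.345 CPM in NC olaparib tumours, and NC IR tumours 3.3, 4.58 and 0.859 CPM against 0.547, 0.155 and 0.183 CPM in NC sham tumours. The groups did not overlap in 3 of the pairs. In the OE pair given olaparib they did, because the unirradiated tumour EO-703 (2.28 CPM) exceeded the irradiated tumour EIO-749. The mean difference over the 4 pairs was 2.59 ± 0.36 on the log2 scale (irradiated over unirradiated, SE). It was 2.31 without EIO-744. The 16 tumours with 1 radiation status in both readings, EIO-744 among them, were compared as 8 irradiated against 8 unirradiated, without pairs. That difference was 2.98. Among the 5 tumours with 1 group in both readings, Il1a was at 2.41 CPM in EIO-713, 3.3 CPM in I-732 and 4.58 CPM in I-736, against 0.746 CPM in EO-762 and 0.299 CPM in ES-706. An exon of the gene Gm14023 on the opposite strand overlaps Il1a, and since the strand setting of the counting is not given in the sources used here, reads of the overlap cannot be assigned.

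Il1b, the ligand made mainly by activated myeloid cells, did not share that pattern. It ran from 0.731 to 188 CPM in irradiated tumours, with a median of 4.48, and from 2.26 to 12.5 CPM in unirradiated tumours, with a median of 6.24. The top value was that of EIO-744, and 4 irradiated tumours lay below every unirradiated one. The fitted difference was 0.34 ± 0.51 (log2, SE) with all tumours and −0.66 ± 0.32 without EIO-744. By pair, the log2 difference was 2.68 ± 1.07 between OE IR+olaparib and OE olaparib tumours (−1.25 ± 0.72 without EIO-744), and −1.72 ± 1.05 between NC IR and NC sham tumours. An antisense transcript, Il1bos, overlaps an exon of Il1b, with the same uncertainty of strand.

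Il36g, an epithelial ligand of the IL-36 receptor, was close to undetected. It had 273 reads in EIO-744, 76 in I-736 and 56 in IO-731, and these 3 irradiated tumours alone carried it past the filter on low counts. The other 21 tumours had 8 reads or fewer. The fitted log2 difference of 3.85 ± 1.02 (SE) therefore rested on 3 tumours, and was 2.59 ± 0.88 without EIO-744. In the 16 tumours with 1 radiation status in both readings the gene did not pass the filter.

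Il33, the nuclear alarm ligand of stromal and epithelial cells, was higher in irradiated tumours with more overlap than Il1a. It had 25.1, 164 and 14.9 CPM in OE IR+olaparib tumours against 3.15, 12.4 and 4.56 CPM in OE olaparib tumours, and 22.4, 25.6 and 6.05 CPM in OE IR tumours against 5.5, 4.87 and 2.41 CPM in OE sham tumours. NC IR+olaparib tumours had 3.89, 38.2 and 18.3 CPM against 6.49, 2.28 and 13.1 CPM in NC olaparib tumours, and NC IR tumours 8.86, 11.2 and 11.9 CPM against 5.52, 7.11 and 3.42 CPM in NC sham tumours. The pair of NC groups given olaparib was the one that overlapped. The mean log2 difference was 1.97 ± 0.44 (SE), and 1.51 ± 0.36 without EIO-744. Il18, the inflammasome-processed ligand that drives interferon gamma, differed less and ran from 6.94 to 21.4 CPM (median 12.5) in irradiated tumours and from 6.61 to 15.6 CPM (median 8.81) in unirradiated tumours. Its log2 difference was 0.44 ± 0.15 (SE), and 0.34 ± 0.13 without EIO-744.

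Il1rn, which encodes the receptor antagonist, separated the irradiated from the unirradiated tumours. It had 59.4, 102 and 74.4 CPM in OE IR+olaparib tumours against 16.7, 20.8 and 25.9 CPM in OE olaparib tumours, and 85.3, 66.2 and 66.2 CPM in OE IR tumours against 24.7, 16 and 14.6 CPM in OE sham tumours. NC IR+olaparib tumours had 34.2, 55.9 and 30.9 CPM against 17.8, 18 and 14.4 CPM in NC olaparib tumours. NC IR tumours had 27.06, 44 and 32.8 CPM against 27.05, 16.9 and 24.1 CPM in NC sham tumours. All 12 irradiated tumours thus lay above all 12 unirradiated ones, by a very small margin between I-732 and S-758, and 11 of 12 did so on CPM without TMM scaling. How many of all genes separate the tumours in this way is not given here. In order of mean level the groups ran OE IR+olaparib (78.6 CPM), OE IR (72.6), NC IR+olaparib (40.3), NC IR (34.6), NC sham (22.7), OE olaparib (21.2), OE sham (18.4) and NC olaparib (16.7). Of the neighbours in that order, OE IR did not overlap NC IR+olaparib and NC IR did not overlap NC sham, while the other neighbours overlapped.

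The mean log2 difference of Il1rn was 1.44 ± 0.14 (SE), the smallest error of the genes that were called, and 1.37 ± 0.13 without EIO-744. The 4 tumours irradiated by identifier but not by the written label (EIO-749, EI-742, EI-752 and IO-728) had 74.4, 85.3, 66.2 and 55.9 CPM. Those irradiated by the written label but not by identifier (EO-701, EO-703, O-724 and S-759) had 16.7, 20.8, 14.4 and 16.9 CPM. The reading by identifier was itself chosen with radiation values of these data known, so these levels cannot decide between the readings. Grouped by the written labels, the log2 difference of Il1rn was 0.09 and no member was called.

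Il1r2, the decoy receptor, was low and uneven. It had 1.96, 44.5 and 2.11 CPM in OE IR+olaparib tumours against 1.15, 1.64 and 1.47 CPM in OE olaparib tumours, and 2.47, 2.18 and 0.871 CPM in OE IR tumours against 0.871, 0.929 and 1.12 CPM in OE sham tumours. NC IR+olaparib tumours had 8.4, 5.59 and 6.65 CPM against 2.18, 8.86 and 1.63 CPM in NC olaparib tumours, and NC IR tumours 13.1, 11 and 1.62 CPM against 1.85, 1.76 and 3.91 CPM in NC sham tumours. Only the OE pair given olaparib did not overlap, and there EIO-744 was far above its group. The mean log2 difference was 1.73 ± 0.48 (SE) with all tumours and 0.97 ± 0.32 without EIO-744.

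The signalling receptors differed less. Il1r1, the receptor shared by both interleukin-1 forms, was at 245 CPM in EIO-744 and between 24.5 and 34.6 CPM in the other 11 irradiated tumours, against 17.3 to 40 CPM in unirradiated tumours. Its log2 difference of 0.28 ± 0.26 (SE) became −0.19 ± 0.10 without EIO-744, and −0.24 without EIO-744, I-732 and S-761, where the fit called it lower with 35.5% of all genes called. Il1rap, the accessory chain, had a median of 47.6 CPM in irradiated tumours and 46 CPM in unirradiated tumours, with a log2 difference of −0.07 ± 0.11. An antisense gene, Gm20319, overlaps an exon of Il1rap.

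Il1rl1, the IL-33 receptor, ran from 35.5 to 975 CPM in irradiated tumours, with a median of 548, and from 426 to 1060 CPM in unirradiated tumours, with a median of 813. EIO-744 (35.5 CPM), EI-752 (193 CPM) and I-732 (279 CPM) lay below every unirradiated tumour, and none lay above. The log2 difference was −0.54 ± 0.31 (SE), and −0.42 ± 0.20 without EIO-744. Counts are summed over the gene, so the soluble and the membrane form of ST2 are not separated. ST2 is known from mast cells, regulatory T cells and group 2 innate lymphoid cells. Summed markers of mast cells and basophils ran from 42.4 to 687 CPM in irradiated tumours and from 7.43 to 167 CPM in unirradiated tumours, with 4 of 9 called higher by edgeR and 8 by DESeq2, beside 39.1% of all genes by edgeR. Those of regulatory T cells and group 2 innate lymphoid cells ran from 19.5 to 118 CPM with radiation and from 21.8 to 34.4 CPM without, with 3 of 6 called higher and 1 lower. Markers of these cell types went both ways in EIO-744, where Il1rl1 was lowest. The mast cell protease genes Cpa3 and Mcpt4 were at 115 and 190 CPM, against medians of 25.5 and 27.9 CPM over all tumours. Rora and Ikzf2 were at 63.4 and 4.68 CPM (medians 3.34 and 3.23). Gata3 and Klrg1 were at 3.83 and 0.38 CPM (medians 12.8 and 2.57), Foxp3 at 1.04 CPM (median 1.58) and the basophil gene Mcpt8 at 0.0316 CPM (median 0.0758). The part of these cells in the level of Il1rl1 was not tested.

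**Figure D2:**
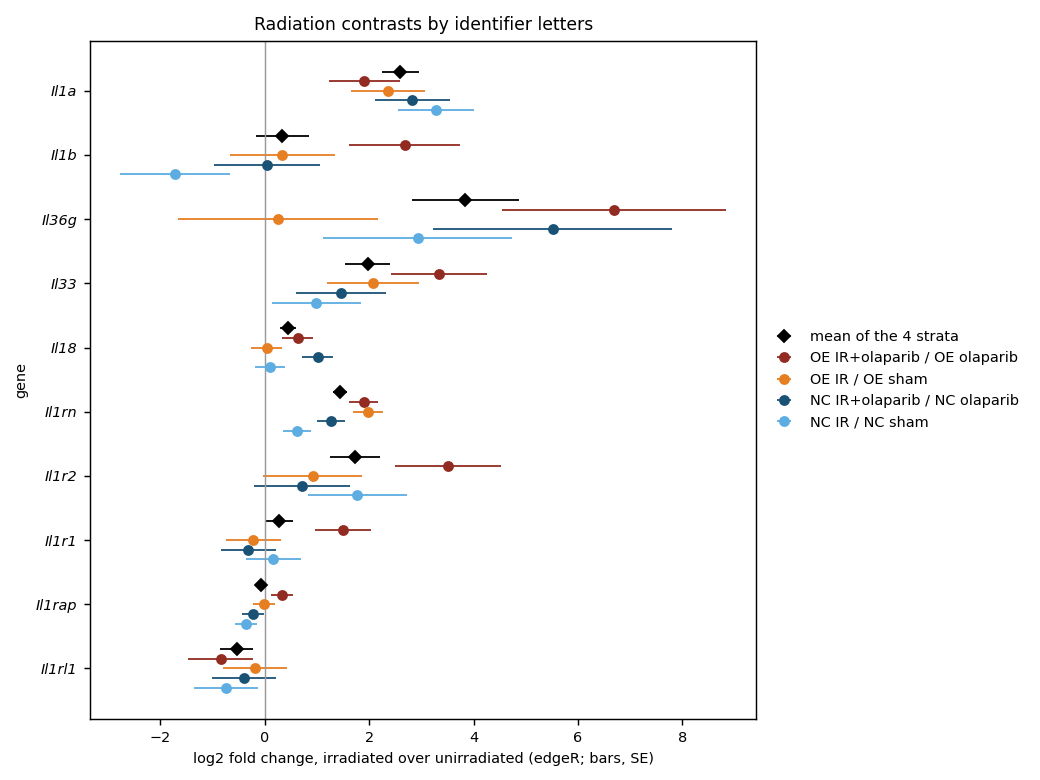
Log2 fold changes of irradiated over unirradiated tumours with SE bars (edgeR), for the mean of 4 strata (black diamonds) and for each stratum of 3 tumours against 3. Il1a, Il36g, Il33, Il18, Il1rn and Il1r2 lie above 0 in all 4 strata, Il1b runs from −1.72 to 2.68, and the bars of Il36g are the widest.

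Averaged over the strata, 6 of the 10 genes were called higher in irradiated tumours (Il1a, Il36g, Il33, Il18, Il1rn and Il1r2) and 0 lower, at an adjusted p below 0.05. Il36g passed the filter only through 3 irradiated tumours, so it could be called in that direction alone. Over all genes tested, 39.1% were called and 21.7% were called higher. The median log2 difference was 0.94 over the 10 genes and 0.04 over all genes, and because the genes were chosen on this contrast nothing is read from these counts. Within strata, 3 were called between OE IR+olaparib and OE olaparib tumours (Il33, Il1rn and Il1r2, with 6.78% of all genes called) and 1 between OE IR and OE sham tumours (Il1rn, 0.248%). One was called between NC IR+olaparib and NC olaparib tumours (Il1rn, 1.46%), and 1 between NC IR and NC sham tumours (Il1a, 10.0%). Without EIO-744, 5 were called on average with 36.9% of all genes called. In the 16 tumours with 1 radiation status in both readings 4 were called, Il1a, Il33, Il1rn and Il1r2, with 35.8% of all genes.

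EIO-744 belongs to the OE pair given olaparib. Without it only Il1rn was called there, at a log2 difference of 1.66, with 0.959% of all genes called, while Il33 was at 1.58 against 3.34 with all tumours, Il1r2 at 0.52 against 3.51 and Il36g at 1.69 against 6.69. Counts of the other pairs differed as well in that fit. Between OE IR and OE sham tumours 2 members were called with 2.35% of all genes, between NC IR+olaparib and NC olaparib tumours 3 with 10.3%, and between NC IR and NC sham tumours 1 with 22.8%.

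**Figure D3:**
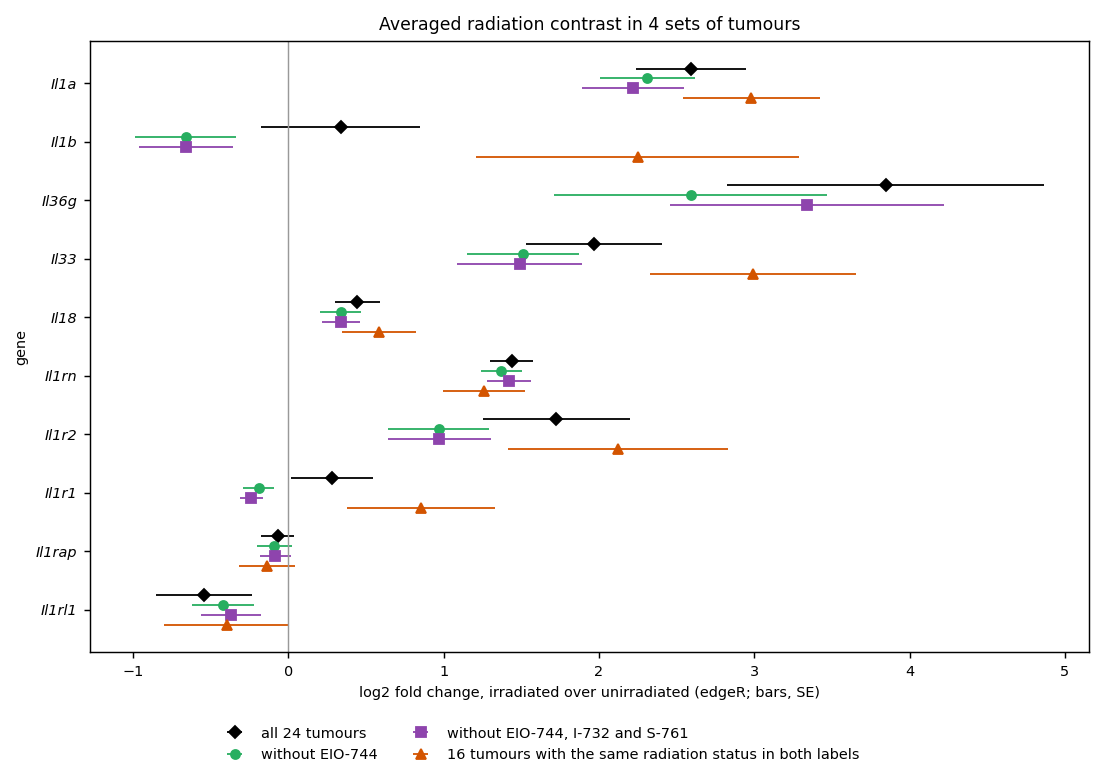
Mean log2 fold changes of irradiated over unirradiated tumours with SE bars for all 24 tumours, without EIO-744, without EIO-744, I-732 and S-761, and in the 16 tumours with 1 radiation status in both readings, where Il36g was not tested. Il1a runs from 2.22 to 2.98, Il1rn from 1.26 to 1.44 and Il1b from −0.66 to 2.25, and Il1r1 lies at −0.19 without EIO-744 and at 0.85 in the 16 tumours.

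The ratio of antagonist to interleukin-1 agonists was taken as Il1rn over the sum of Il1a and Il1b in RPKM. These genes were chosen with their radiation differences known, so the ratio is a description and nothing is read from a lack of overlap. It had a median of 2.44 in irradiated tumours (range 0.178 to 6.87) and 1.15 in unirradiated tumours (0.577 to 3.4). OE IR tumours had ratios of 2.5 to 3.22 against 0.663 to 1.62 in OE sham tumours, without overlap. NC IR+olaparib tumours had 1.74 to 2.98 against 1.1 to 1.66 in NC olaparib tumours, also without overlap. NC IR tumours (1.94 to 5.4) overlapped NC sham tumours (0.683 to 3.4). OE IR+olaparib tumours had 0.178, 2.24 and 6.87, on both sides of the OE olaparib tumours (0.577 to 0.674). The lowest ratio of all was that of EIO-744, which had the highest Il1rn and the highest Il1b.

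Among irradiated tumours, Il1rn and Il1rap were called higher in OE than in NC tumours. Neither overlapped between the lines, but the share of all genes that do not overlap here is not given, so nothing is read from that. Il1rn ran from 59.4 to 102 CPM in 6 irradiated OE tumours, with a median of 70.3, and from 27.1 to 55.9 CPM in 6 irradiated NC tumours, with a median of 33.5. The log2 difference was 1.01 ± 0.19 (SE, 95% interval 0.61 to 1.42), with an adjusted p of 0.0204 by edgeR's quasi-likelihood test over all genes. Il1rap ran from 53.6 to 60.1 CPM in the OE tumours (median 55.2) and from 23.1 to 41.7 CPM in the NC tumours (median 36.5), a log2 difference of 0.70 ± 0.15 (SE, 95% interval 0.38 to 1.01) with an adjusted p of 0.0302 by the same edgeR test. Thus 2 of the 10 genes were called, both higher in OE, against 1.31% of all genes. The replicates are separate tumours, and these p-values measure only the spread between tumours within groups. That spread was estimated over all 8 groups, unirradiated ones included, with information shared across genes.

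Labels and single tumours bear on that result. In the 9 irradiated tumours whose written label names the same cell line, Il1rn was at 59.4 to 85.3 CPM in 4 OE and 27.1 to 55.9 CPM in 5 NC tumours. Il1rap was at 53.6 to 55.7 CPM in those OE tumours and 23.1 to 41.7 CPM in those NC tumours. They are part of the irradiated tumours above, which did not overlap, so these ranges could not overlap and are no check on the labels. The fit on the 4 irradiated groups alone gave differences of 1.02 and 0.70 with an adjusted p of 0.154 for each gene by edgeR, past the threshold for neither. Leaving out OE IR tumour EI-742 or EI-745, or NC IR+olaparib tumour IO-726 or IO-731, ended both calls, and without EIO-749, EI-752, I-732 or I-736 the call of Il1rap alone ended. With 1 tumour left out, the edgeR adjusted p ran from 0.00562 to 0.0808 for Il1rn and from 0.00751 to 0.1 for Il1rap, and the differences from 0.92 to 1.19 and from 0.62 to 0.83. Groups by the written labels gave −0.49 for Il1rn and 0.28 for Il1rap, neither called.

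Il1b had the largest positive difference between the irradiated lines, 2.99 ± 0.77 (log2, SE), with an adjusted p of 0.0621 by edgeR, and it fell short of a call. Its levels were 1.91 to 188 CPM in OE and 0.731 to 6.18 CPM in NC tumours, with medians of 5.93 CPM in OE and 2.36 CPM in NC. Without EIO-744 its difference was 1.05 ± 0.47, with an adjusted p of 0.13. Il18 had the most negative difference, −0.65 ± 0.21 with an adjusted p of 0.114. It ran from 6.94 to 17.6 CPM in OE tumours and from 8.87 to 21.4 CPM in NC tumours, and the one OE tumour above 11.1 CPM was EIO-744. Without EIO-744, 4 genes were called against 14.1% of all genes: Il1rn at 0.92 and Il1rap at 0.70 were higher in OE, and Il18 at −0.82 ± 0.20 (edgeR adjusted p of 0.0126) and Il1r2 at −1.97 ± 0.50 (edgeR adjusted p of 0.0165) were lower.

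**Figure D4:**
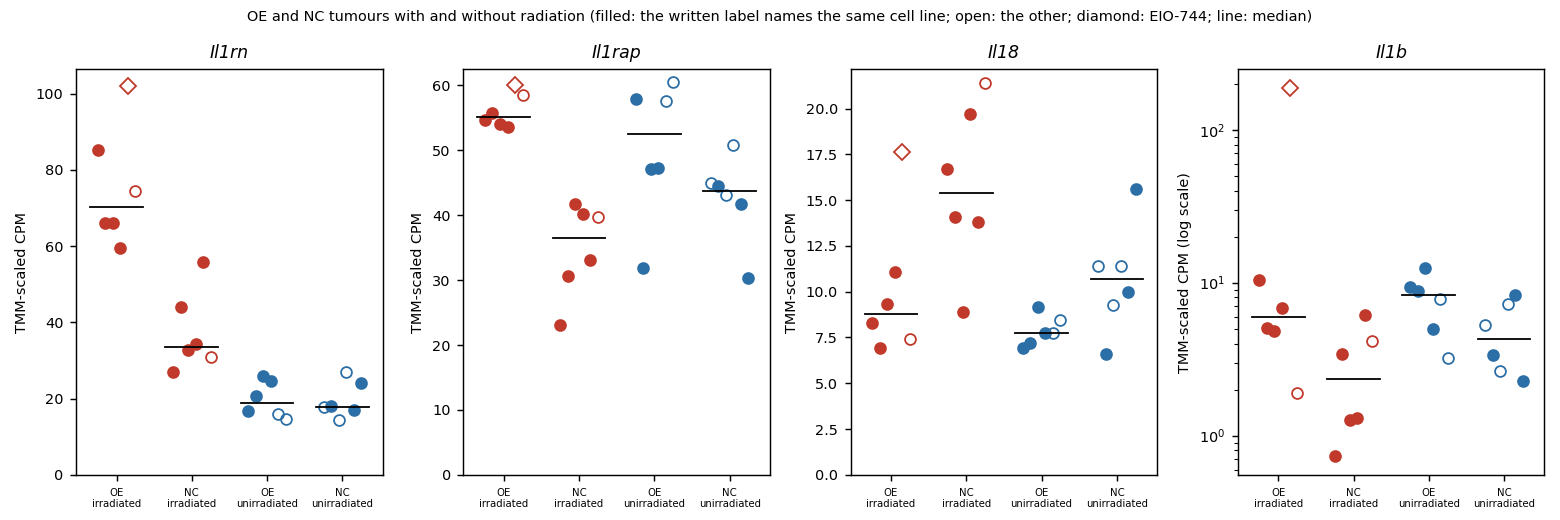
TMM-scaled CPM of Il1rn, Il1rap, Il18 and Il1b (log axis for Il1b) in OE and NC tumours with and without radiation, 6 tumours per column with a line at the median. Filled symbols mark tumours whose written label names the same cell line, and the diamond is EIO-744. Irradiated OE tumours lie above irradiated NC tumours for Il1rn (59.4 against 55.9 CPM at the closest) and Il1rap (53.6 against 41.7 CPM), and the unirradiated lines overlap.

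Without radiation no member was called between the lines. Il1rn ran from 14.6 to 25.9 CPM in 6 unirradiated OE tumours and from 14.4 to 27 CPM in 6 unirradiated NC tumours, a log2 difference of 0.02 ± 0.19 (SE, 95% interval −0.38 to 0.42). Il1rap ran from 31.8 to 60.6 CPM in the OE and from 30.3 to 50.8 CPM in the NC tumours, a difference of 0.24 ± 0.15. None of the 10 genes was called by edgeR, 2 had an unadjusted p below 0.05, and 0 were called by DESeq2, with 0.00604% of all genes called by edgeR. Of all 16560 genes, 1367 had an unadjusted p below 0.05 and DESeq2 called 124. The smallest p was that of Il1a, also the largest positive difference (1.13 ± 0.49, edgeR adjusted p of 0.55), and the most negative difference was that of Il1r2 (−1.47 ± 0.67). Without EIO-744 edgeR again called 0 of the 10 genes, with 0.0118% of all genes called. Then 4 of the 10 and 2010 of all genes had an unadjusted p below 0.05, the smallest of the 10 being that of Il1r2 (−1.46 ± 0.455, edgeR adjusted p of 0.187).

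The radiation difference in OE minus that in NC tests whether the lines differ. For Il1rn it was 0.99 ± 0.27 on the log2 scale (SE, 95% interval 0.43 to 1.56), the smallest p of the 10 genes, with an adjusted p of 0.194 by edgeR and 0.0377 by DESeq2. The most positive value was that of Il1b (2.35 ± 1.03) and the most negative that of Il1a (−0.92 ± 0.68). By edgeR 0 of the 10 genes were called, 3 had an unadjusted p below 0.05 and DESeq2 called 1, against 0.00604% of all genes by edgeR. Of all 16560 genes, 1882 had an unadjusted p below 0.05 and DESeq2 called 236. Without EIO-744 edgeR again called 0 of the 10 genes, with 3.51% of all genes called. Il1rn was then at 0.90 ± 0.26 (edgeR adjusted p of 0.0617) and the most positive, Il1b was at 0.40 ± 0.64, Il1a at −1.45 ± 0.61, and Il36g was the most negative at −3.24 ± 1.85. That value of Il36g rested mainly on the irradiated NC tumours I-736 (76 reads) and IO-731 (56 reads). For Il1rap the value was 0.46 ± 0.21, with an adjusted p of 0.424 by edgeR. These contrasts share tumours with the comparisons of the lines above.

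Olaparib alone was followed by no called difference. Of the 10 genes 0 were called by edgeR, 0 had an unadjusted p below 0.05 and DESeq2 called 0, with 0% of all genes called by edgeR. Of all genes 486 had an unadjusted p below 0.05 and DESeq2 called 5. Il1a had the smallest p and the largest positive difference, 0.91 ± 0.49 (log2, SE, 95% interval −0.13 to 1.94). Its levels were 0.65, 2.28 and 0.746 CPM in OE olaparib tumours against 0.299, 0.477 and 0.522 CPM in OE sham tumours, without overlap, and 0.322, 0.44 and 0.345 CPM in NC olaparib tumours within the range of NC sham tumours. Il36g, with 2 reads or fewer in each olaparib tumour and 8 or fewer in each sham tumour, had the most negative fitted value, −2.13 ± 1.62. For Il1rn the difference was −0.12 ± 0.19, with an interval of −0.52 to 0.28.

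Olaparib added to radiation also gave 0 calls among the 10 genes by edgeR and 0 by DESeq2, and 0% of all genes by edgeR. Of the 10 genes 4 had an unadjusted p below 0.05, as did 1457 of all 16560 genes, and DESeq2 called 1 gene of all. Without EIO-744 edgeR called 0 of the 10 genes, 0 of the 10 had an unadjusted p below 0.05, and 0% of all genes were called. Il1b had the smallest p, a log2 difference of 2.19 ± 0.75 (SE) with an adjusted p of 0.477, and its difference was 0.23 ± 0.47 without EIO-744. Il36g had the largest positive value, 2.39 ± 1.22, and −0.11 ± 1.14 without EIO-744, and Il1rl1 the most negative, −0.01 ± 0.44. Il1rn differed by 0.17 ± 0.19, with an interval of −0.23 to 0.57. The radiation difference with olaparib minus that without gave 0 calls by edgeR and 0 by DESeq2, 2 genes with an unadjusted p below 0.05 and 0% of all genes called. Over all genes 588 had an unadjusted p below 0.05 and DESeq2 called 7. Il18 had the smallest p there (0.75 ± 0.29, edgeR adjusted p of 0.987, and 0.56 ± 0.26 without EIO-744). Il36g had the largest value (4.51 ± 2.03, and 2.02 ± 1.71 without EIO-744) and Il1a the most negative (−0.45 ± 0.67). As above, Il36g passed the filter only through 3 irradiated tumours.

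Other genes of the pathway are given by list for the averaged radiation contrast, beside 39.1% of all genes called and a median log2 difference of 0.04. Of 22 genes known to be induced by interleukin-1, 21 were tested, 16 were called higher and 0 lower, with a median of 1.83. Saa3, an acute-phase protein, had 524 ± 1400 CPM in irradiated and 5.42 ± 4.55 CPM in unirradiated tumours (SD, n = 12 each), a log2 difference of 5.02 ± 0.82. Without EIO-744 its irradiated level was 125 ± 243 CPM (SD, n = 11) and its difference 3.33 ± 0.47. Lcn2, an iron-binding protein of epithelia and neutrophils, had 18.4 ± 29.4 CPM in irradiated and 0.576 ± 0.801 CPM in unirradiated tumours (SD, n = 12 each), a difference of 4.35 ± 0.68, and 3.64 ± 0.56 without EIO-744. Without EIO-744, edgeR called 16 of the list higher and 0 lower, with a median of 1.43 and 36.9% of all genes called. With all tumours DESeq2 called 14 higher and 0 lower, and 7059 of all genes. Many of these genes are also induced by other NF-kB signals.

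Signalling and processing genes gave lower medians. Of 26 genes of receptor signalling to NF-kB, 8 were called higher and 1 lower, with a median of 0.13. Irak3, which restrains the IRAK kinases, was at 29.8 ± 22.5 CPM in irradiated and 11.4 ± 2.31 CPM in unirradiated tumours (SD, n = 12 each), with a log2 difference of 1.33 ± 0.28. Nfkbiz, a nuclear cofactor of NF-kB, differed by 1.08 ± 0.28 (0.72 ± 0.19 without EIO-744), and Tab1, an activator of the kinase TAK1, by −0.40 ± 0.08. Of 17 tested inflammasome and processing genes 7 were called higher and 0 lower, with a median of 0.35. Among them Casp1, the converting enzyme of interleukin-1 beta, differed by 0.39 ± 0.15, Mefv, which encodes the inflammasome sensor pyrin, by 0.96 ± 0.35 (0.45 ± 0.24 without EIO-744), and the granule protease gene Ctsg by 1.98 ± 0.71.

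Of 11 other ligand, receptor and binding protein genes of the family, 6 were tested. Il18bp, the soluble inhibitor of IL-18, was at 160 ± 79.5 CPM in irradiated and 51.7 ± 30.6 CPM in unirradiated tumours (SD, n = 12 each), a log2 difference of 1.69 ± 0.31. Il1rl2, the IL-36 receptor, differed by 1.38 ± 0.41, with an SD of 30.4 CPM about a mean of 13.9 CPM in irradiated tumours, against 3.47 ± 2.02 CPM in unirradiated tumours. Without EIO-744 its irradiated level was 5.15 ± 1.95 CPM (SD, n = 11) and its difference 0.64 ± 0.24. Sigirr, an inhibitory receptor of the family, differed by −0.59 ± 0.13.

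**Figure D5:**
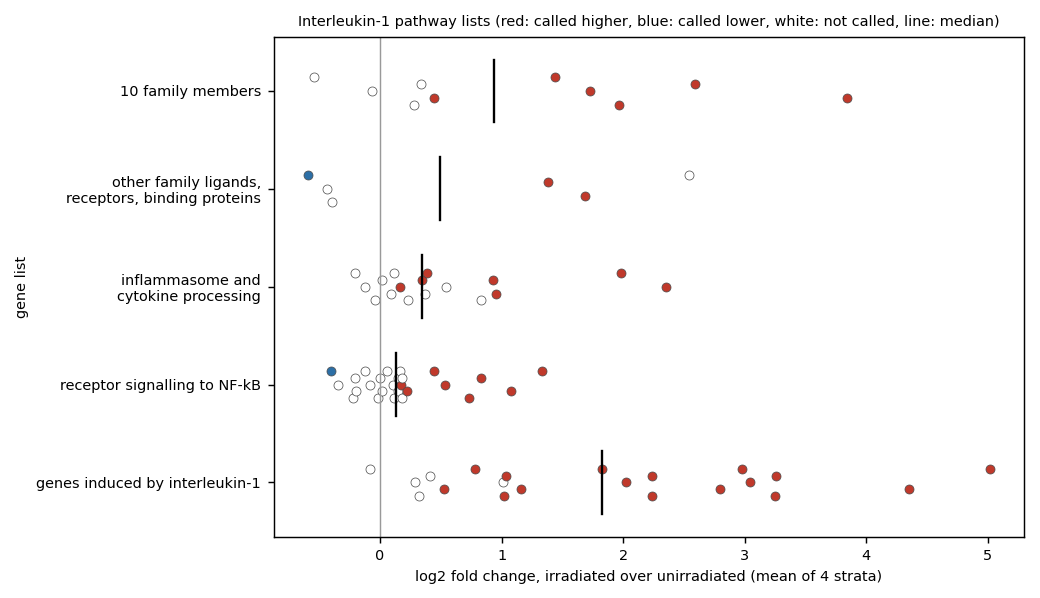
Mean log2 fold changes of irradiated over unirradiated tumours for the 10 genes and 4 lists of the pathway, 1 point per tested gene, with red for genes called higher, blue for genes called lower, white for genes not called and a line at the median. The list of genes induced by interleukin-1 has a median of 1.83, and the signalling list a median of 0.13.

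Between irradiated OE and NC tumours, 2 genes of the induced list were called higher and 1 lower, beside 1.31% of all genes. Cxcl5, a neutrophil chemokine, differed by 4.48 (log2, edgeR adjusted p of 0.0441), Il6 by 3.95 (edgeR adjusted p of 0.0368) and the adhesion molecule gene Vcam1 by −1.13 (edgeR adjusted p of 0.0304). These genes were singled out because they were called. Without EIO-744 the differences were 1.79 for Cxcl5 (edgeR adjusted p of 0.104), 2.60 for Il6 (0.0249) and −0.96 for Vcam1 (0.0132), so the call of Cxcl5 ended. In that set 3 genes of the list were called higher in OE and 3 lower, beside 14.1% of all genes, and both Saa3 (−3.52) and Lcn2 (−3.30) were lower in OE. Without EIO-744, I-732 and S-761 the call of Il6 ended too, at 2.44 with an edgeR adjusted p of 0.0522. The other 3 lists together had 0 of 49 tested genes called by edgeR in that comparison, 7 with an unadjusted p below 0.05 and 1 called by DESeq2.

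Marker genes of other cell types are given by list for the averaged radiation contrast, in which 39.1% of all genes were called, and shares near that are no result about a list. Of 9 tested neutrophil markers 7 were called higher and 0 lower. The sum over 12 markers lay between 146 and 528 CPM after radiation and between 111 and 244 CPM without it. Among irradiated tumours without EIO-744 the maximum was 303 CPM. The defining neutrophil gene Ly6g had no read in 14 tumours and at most 0.253 CPM. Of 12 macrophage and monocyte markers 7 were called higher and 0 lower, and they summed to between 2970 and 19500 CPM after radiation and to between 5410 and 14600 CPM without it. Fibroblast markers (4 of 10 called higher, 0 lower) summed to between 4040 and 130000 CPM after radiation and to between 3140 and 6220 CPM without it, with a maximum of 7740 CPM among irradiated tumours without EIO-744, where 2 were called higher and 2 lower. Of 7 tested T cell markers 0 were called higher and 4 lower, and they summed to between 21.1 and 148 CPM after radiation and to between 33.8 and 289 CPM without it.

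Skeletal muscle markers summed to between 44.4 and 14200 CPM after radiation and to between 22.1 and 1280 CPM without it. Of 8 of them edgeR called 6 higher and DESeq2 8, and without EIO-744 edgeR called 1. Adipocyte markers summed to between 28.7 and 1320 CPM after radiation (at most 510 CPM without EIO-744) and to between 43.7 and 296 CPM without it. Of 5 of them edgeR called 2 higher and DESeq2 4. Endothelial markers summed to between 244 and 1930 CPM after radiation (at most 670 CPM without EIO-744) and to between 212 and 319 CPM without it. Both tools called 4 of 8 higher. Of 4 erythroid markers 0 were called by edgeR or DESeq2, and 0 had an unadjusted p below 0.05.

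Markers of differentiated keratinocytes, known sources of Il1a, Il1rn and Il36g, summed to between 4.36 and 420 CPM after radiation and to between 7.54 and 149 CPM without it, with 2 of 10 tested called higher. Of 10 basal keratinocyte markers 4 were called higher and 0 lower, and 2 were called higher without EIO-744. In the comparison of irradiated OE with NC tumours 0 of 98 tested markers were called by edgeR, 20 had an unadjusted p below 0.05 and DESeq2 called 3 higher and 5 lower. Without EIO-744, edgeR called 1 neutrophil marker higher and 3 lower in OE, 2 basal keratinocyte markers higher and 1 lower, and 2 muscle and 2 endothelial markers lower, with at most 1 in each direction in the other marker lists, beside 14.1% of all genes. The part of these cell types in the levels of the 10 genes was not tested.

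The genes most like each member across tumours, after the mean of each group was subtracted, changed for most members when EIO-744 was left out. Pearson's r on log2 CPM is given as a description over 24 tumours, each point being 1 library. Il1r1 was most like the collagen genes Col5a1 (0.981) and Col3a1 (0.976), but over 23 tumours without EIO-744 most like Usp34 (0.907). Il33 was most like Adam23 with and without EIO-744 (0.943 and 0.933). Il36g was most like Fam25a (0.889) and Klk7 (0.874), and without EIO-744 most like the keratin gene Krt6b (0.888) and Klk7 (0.887). Il1a was most like Dennd4a in both sets (0.797 and 0.732). Il1b was most like Prdm1 (0.89), Il18 most like Smim27 (0.896), Il1r2 most like Nbl1 (0.95), Il1rap most like Lpp (0.808) and Il1rl1 most like Gm41616 (0.942). Il1rn had the lowest such value, 0.675 with Trem1.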

How the data were processed

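Total RNA of 24 tumours was sequenced, and the kit was VAHTS Universal V5, per the labels' protocols. Per the submitters' processing notes, reads were trimmed with fastp, aligned with HISAT2 to mm10 and counted with HTSeq. Versions, annotation and strand setting are not given in the sources used here. The authors deposited raw counts per gene. From these, edgeR 4.0.16 (R 4.3.3) fitted all 8 groups of 3 with TMM scaling, filterByExpr and quasi-likelihood tests, adjusted by Benjamini-Hochberg over 16560 genes and called at 0.05. The test was tried on simulated data with known changes. RPKM used GENCODE M21 exon lengths, and Il36g was matched to its annotation entry (Il1f9) by Entrez identifier.

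The members, the lists and the reading of the labels were chosen with earlier results of these data known. Named are all members for radiation, in each tested contrast the called members, the smallest p where none was called and both extremes, and of each list the called genes with the largest differences at a mean of at least 1 CPM. Casp1, Cxcl5, Il6 and Vcam1 were added after their values were seen. For marker lists only counts and sums are given. No 2 replicates agreed within sampling noise (lowest chi-square per gene 14.4). Alternatives were DESeq2 1.42.0, its size factors, no filter, the compared groups alone, groups by the written labels, and tumours left out. The sets without EIO-744, I-732 and S-761 were chosen after seeing the data.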

Additional observations from a re-analysis of the deposited data

How the results depend on the processing

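No paired analysis was possible because the groups compared share no replicate numbers. Numbers below are members called, of 10, with all genes called in brackets. Grouped by the written labels, 0 were called in every comparison (5 or fewer genes in all), against 6 for averaged radiation, 1 in NC, 1 in OE, 1 in NC under olaparib, 3 in OE under olaparib and 2 for OE against NC with radiation. That reading turned 37 of the 110 log2 differences of members round, among them Il1rn to −0.49 (radiation in NC), −0.42 (radiation in OE), −0.18 (radiation in OE under olaparib), −0.49 (OE against NC with radiation) and −0.79 (radiation effect in OE minus NC), Il33 to −1.21 (radiation in NC), Il1b to −0.79 (radiation in OE under olaparib), −0.85 (OE against NC with radiation) and −1.68 (radiation effect in OE minus NC), Il1a to −0.0058 (olaparib alone), −0.032 (OE against NC without radiation) and 0.49 (radiation effect with minus without olaparib), Il36g to 0.17 (olaparib alone) and Il1rl1 to 0.15 (olaparib added to radiation). The compared groups alone gave 0 (0) for radiation in NC, 3 (2106) in OE, 3 (2195) in NC under olaparib, 0 (0) in OE under olaparib and 0 (0) for OE against NC with radiation. DESeq2 gave 2 (644) in OE, 3 (1428) in NC under olaparib, 6 (2404) in OE under olaparib and 1 (236) for the radiation effect in OE minus NC. Without EIO-744, I-732 and S-761 the counts were 0 (10) in NC, 2 (1093) in OE, 4 (2719) in NC under olaparib, 1 (338) in OE under olaparib and 4 (1949) for OE against NC with radiation, and for olaparib added to radiation Il36g became −0.38 and Il1rl1 0.092. Leaving out each tumour gave 0 to 2 in NC, 0 to 2 in OE, 0 to 3 in NC under olaparib, 1 to 8 in OE under olaparib and 0 to 4 for OE against NC with radiation. For olaparib added to radiation it gave −0.11 to 4.39 for Il36g and −0.20 to 0.25 for Il1rl1. The causes were not tested. DESeq2 size factors and the absence of a filter moved no count of members by more than 1.5 times. Depth limits Il36g, with 5 or fewer reads in 19 tumours, and 9 member values had no estimate or adjusted p in an alternative.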
